A study of Homo sapiens with 12 samples.

Results

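Fatty acid oxidation genes are the genes for the enzymes, carriers and regulators that take a fatty acid from its activation to acetyl-CoA in mitochondria and peroxisomes. They were chosen by symbol from a list of 39 genes, and a gene was kept when its row held at least 10 counts over the 12 libraries. All 39 listed genes were kept, of 17173 gene names in the table that reached the same count. The libraries were made from ASC52telo hTERT, a line of human adipose stromal cells immortalized with telomerase, after 14 days of differentiation into adipocytes. linc-ADAIN is a long intergenic non-coding RNA of human adipocytes, and setting its KD against scramble control addresses which adipocyte genes differ when its level is lowered by shRNA, with and without an inflammatory stimulus. There were 3 libraries of scramble shRNA, 3 of linc-ADAIN shRNA, 3 of scramble shRNA given LPS for 4 h (100 ng/mL), and 3 of linc-ADAIN shRNA after the same LPS. LPS, a bacterial cell wall component, triggers inflammatory signaling.

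Every group shared the same culture history. The cells carried a lentiviral shRNA vector with the ZsGreen reporter and were sorted for ZsGreen, with 1 hairpin against linc-ADAIN and 1 scramble hairpin in a single line. All were given insulin, dexamethasone, isobutylmethylxanthine and rosiglitazone, an agonist of PPARγ, for the first 7 days, and insulin and dexamethasone after that. How far linc-ADAIN was lowered in these libraries was not analysed here, so that the KD label was not checked against its target. Each group is a triplicate of a single experiment, and p-values therefore measure only the spread inside it. With 3 libraries against 3, an exact two-sided permutation test cannot give a p under 0.1, and the adjusted p-values below come from edgeR's quasi-likelihood test fitted over all genes.

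Beta-oxidation shortens a fatty acid from its carboxyl end. Acyl-CoA synthetases first couple the fatty acid to coenzyme A, and the carnitine shuttle carries long acyl chains into mitochondria, with CPT1 as the controlling step. There, chain-length specific dehydrogenases, hydratases, hydroxyacyl dehydrogenases and thiolases repeat a cycle that releases acetyl-CoA, and the electrons pass through the electron transfer flavoprotein. Peroxisomes shorten very long and branched chains by a parallel set of enzymes. White adipocytes mainly store and release fatty acids, and many genes of the pathway are targets of the PPAR nuclear receptors.

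The depth was 28.4 M to 53.8 M counts per library, and 48.1 M to 53.8 M in scramble control without LPS. Libraries of the same group correlated at 0.987 to 0.994 on the log2(CPM + 1) scale. Levels are given as CPM, the counts of a gene per M counts of its library after scaling by edgeR's TMM method over the 12 libraries. The labelled cell type was checked against 13 adipocyte markers, whose summed level was 3503 to 4737 CPM in scramble control, 4004 to 4589 CPM in scramble with LPS, 720.9 to 2070 CPM in KD and 570.1 to 1300 CPM in KD with LPS. LEP and SLC2A4, which mark mature adipocytes, stayed under 1 CPM in every library, and LPL did so in all groups but KD without LPS. The leukocyte markers PTPRC, ITGAM, TYROBP and LYZ and all 6 muscle markers were under 1 CPM in every library. Of 4 endothelial markers, CDH5 was under 1 CPM throughout, and their sum was 15.33 to 18.99 CPM in scramble control, 10.34 to 11.63 CPM in scramble with LPS, 9.283 to 10.08 CPM in KD and 5.399 to 9.666 CPM in KD with LPS. CD163 carried most of the leukocyte sum, which was 4.148 to 7.474 CPM over the scramble libraries and 56.9 to 86.96 CPM over the KD libraries. In a bulk library, fewer adipocytes among the cells and less of an adipocyte mRNA per cell cannot be told apart.

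The sequences before the transcription start are shown for 3 members whose levels differed between KD and scramble control, SLC25A20 and PDK4 lower in KD and PPARD higher, to set the regions side by side. They come from RefSeq (GRCh38.p14), run 5′ to 3′ on the strand of the gene, and end before any exon of the same gene in GENCODE 44. Capitals mark the GC box GGGCGG and the CCAAT box CCAAT on either strand, motifs common to many promoters. SLC25A20 lies on the minus strand at chr3:48898905-48899132, PDK4 on the minus strand at chr7:95596517-95596766 and PPARD on the plus strand at chr6:35342308-35342557.
SLC25A20: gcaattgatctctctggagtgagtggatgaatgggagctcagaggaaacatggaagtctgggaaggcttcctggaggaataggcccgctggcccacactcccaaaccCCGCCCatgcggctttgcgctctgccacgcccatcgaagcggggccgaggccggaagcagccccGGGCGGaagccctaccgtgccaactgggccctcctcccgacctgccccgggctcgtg
PDK4: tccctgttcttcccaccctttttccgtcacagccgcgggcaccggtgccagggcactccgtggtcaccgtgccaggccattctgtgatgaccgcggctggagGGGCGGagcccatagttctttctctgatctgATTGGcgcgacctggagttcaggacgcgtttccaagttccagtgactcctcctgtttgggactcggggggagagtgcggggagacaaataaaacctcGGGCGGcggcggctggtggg
PPARD: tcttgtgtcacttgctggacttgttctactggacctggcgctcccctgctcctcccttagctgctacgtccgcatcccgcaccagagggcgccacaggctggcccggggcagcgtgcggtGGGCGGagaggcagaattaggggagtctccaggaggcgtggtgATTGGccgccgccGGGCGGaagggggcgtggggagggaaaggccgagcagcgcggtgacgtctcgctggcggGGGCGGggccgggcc
The SLC25A20, PDK4 and PPARD runs held 2, 2 and 3 GC boxes and were 65.8%, 62.8% and 70.8% G or C.

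RefSeq windows of 250 bases before and 50 after the start were used, without those of chromosome 8, where DECR1 lies, and the mitochondrial genome. They covered 30 members, with 43 windows in all. A GC box lay in 69.8% of the members' windows, against 44.954% of all 35116 windows used, and a CCAAT box in 25.6% against 34.614%. The TATA box TATAAA lay in 6.98% of the members' windows and in 11.53% of all windows. The PPAR response element, searched on either strand as 2 copies of AGGTCA with 1 base between, lay in 0 of the 43 windows and in 0.023% of all windows. That count says only that these letters are not in these windows. HADHA and HADHB, which code for the subunits of the same enzyme, start head to head on chromosome 2, at 26244632 on the minus strand and 26244939 on the plus strand, with 306 bases between their first bases.

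Levels can be set side by side between genes only per length. In scramble control without LPS, ACSL1 had the highest level at 174.9 ± 30.8 CPM per kb of reference transcript (SD, n = 3), ahead of ACSL4 at 152.9 ± 6.78 CPM per kb, and the spread of ACSL1 covered the level of ACSL4. ACADVL followed at 105.9 ± 0.907 CPM per kb, then PDK4 at 84.02 ± 22.2, HSD17B4 at 80.06 ± 9.60 and HADHA at 76.03 ± 0.848 CPM per kb, and PDK4, HSD17B4 and HADHA did not differ beyond their spread. At the other end stood CPT1B at 0.8076 ± 0.120 CPM per kb and PPARA at 0.7794 ± 0.366 CPM per kb. CPT1A, the controlling carnitine palmitoyltransferase of most tissues outside muscle, was at 6.78 ± 0.879 CPM per kb, rank 25 of 39. ACADL, the long-chain acyl-CoA dehydrogenase, had 0 to 6 counts per library and a total of 18 over the 12 libraries. With the longest transcript in place of the reference transcript, HSD17B4 moved from rank 5 to rank 13, whereas ACSL1, ACSL4, ACADVL and PDK4 stayed at the top in the same order.

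**Figure D1:**
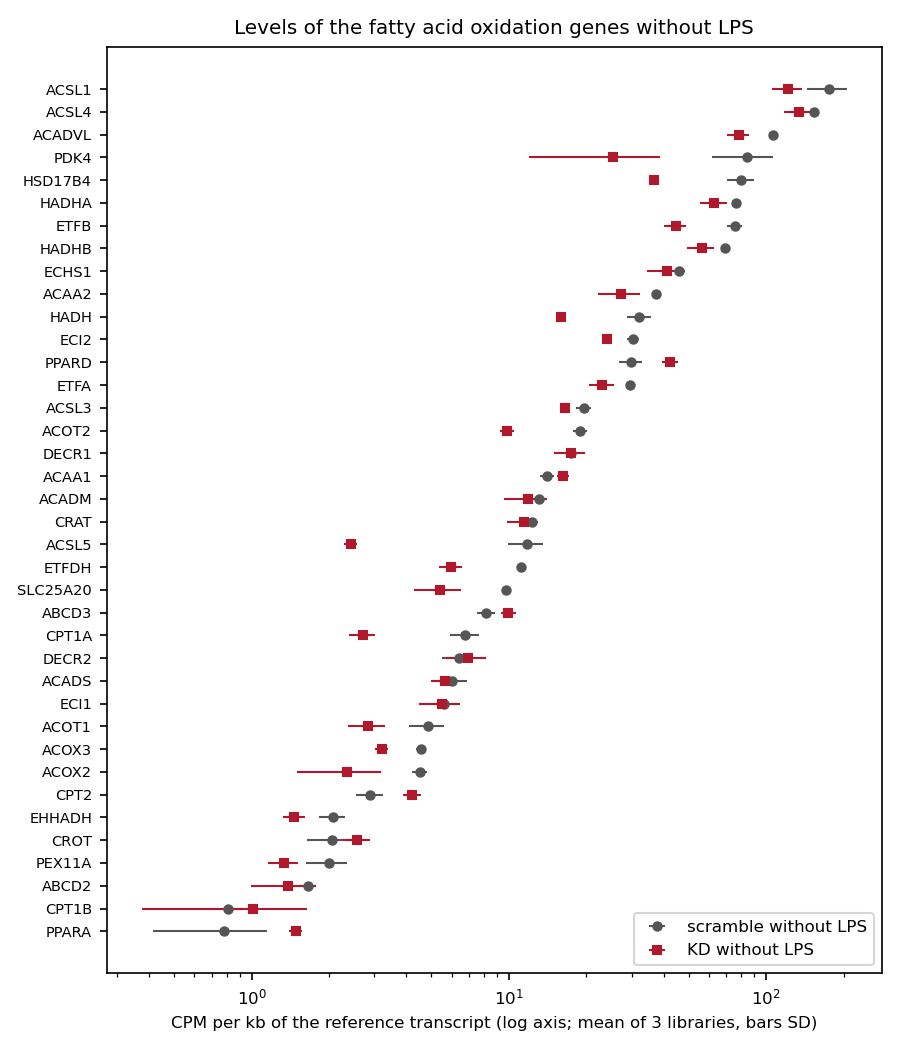
Level of each member in scramble control and linc-ADAIN KD without LPS, in CPM per kb of the reference transcript on a log axis (points, mean of 3 libraries; bars, SD). ACADL is not drawn. The levels span from 174.9 CPM per kb for ACSL1 to 0.7794 CPM per kb for PPARA in scramble control, and the KD point of ACSL5 lies at 2.431 against 11.74 CPM per kb.

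In linc-ADAIN KD without LPS, 20 of the 39 members were lower than in scramble control and 4 were higher at an adjusted p under 0.05. Over all 16217 genes tested, 15.1% were lower and 12.1% higher. The share of lower members stood above this background and the share of higher members did not. The members were chosen with earlier results of these data known, so these shares do not test the pathway. Of 43 other tested genes of fatty acid oxidation and uptake, 18.6% were lower and 11.6% higher. The lower members came from every role, among them the activating enzyme ACSL5, the entry enzyme CPT1A, the carrier SLC25A20, the dehydrogenases ACADVL and HADH, both electron transfer flavoprotein subunits and the peroxisomal enzyme HSD17B4. The median log2 fold change of the members was -0.338, beside 0.024 for all genes. At least a 2-fold difference with an adjusted p under 0.05 was found for 5 members, all lower (ACSL5, CPT1A, HADH, HSD17B4 and PDK4), against 3.49% lower and 4.28% higher over all genes.

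With LPS, ACADL fell below the count minimum and 38 members were tested. Of these, 19 were lower in KD and 3 higher, against 14.2% lower and 12.7% higher of 15981 genes, and the median log2 fold change was -0.400. The 5 members past the 2-fold threshold were again all lower (ACSL5, SLC25A20, HADH, HSD17B4 and PDK4), against 3.90% lower and 4.58% higher over all genes. The libraries with and without LPS are different libraries, and 15 members were lower in both, which is 75% of those lower without LPS and 78.9% of those lower with LPS. For all genes the corresponding shares were 69.9% and 75.4%. The 3 members that were higher with LPS (CPT2, ABCD3 and PPARD) were also higher without it, as were 62.6% of all genes that were higher with LPS. With each library left out in turn, 15 to 20 members were lower without LPS and 17 to 21 with LPS.

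**Figure D2:**
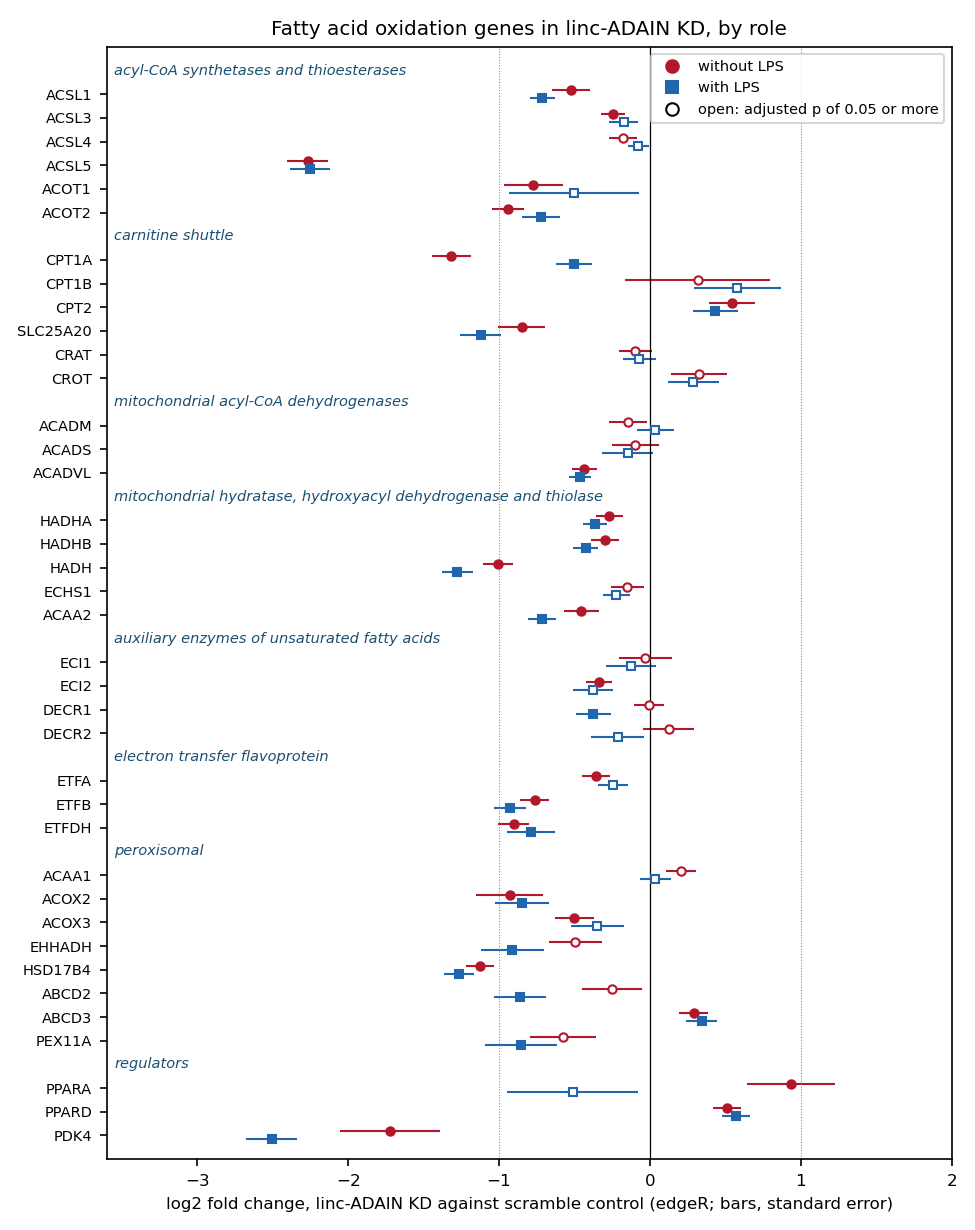
Log2 fold change of linc-ADAIN KD against scramble control for 38 members, grouped by role, without LPS (circles) and with LPS (squares). Filled symbols have an adjusted p under 0.05, bars are the standard error from edgeR and dotted lines mark a 2-fold difference. ACADL, with 18 counts in all, is not drawn. ACSL5 and PDK4 lie farthest to the left, and CPT2, ABCD3 and PPARD lie to the right in both comparisons.

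The adipocyte markers moved the same way. Without LPS, 9 of 13 were lower in KD, with a median log2 fold change of -1.114, and with LPS 10 were lower, with a median of -1.88. Within the KD libraries their sum was 2070, 1559 and 720.9 CPM in replicates 1 to 3, and replicate 3 held the lowest KD value for 23 of 38 members (60.5%), against 32.1% of all genes. With LPS the sum was 1300, 904.7 and 570.1 CPM, and KD replicate 3 held the lowest value for 20 of 38 members (52.6%), against 32.8% of all genes. Without KD replicate 3, 17 members were lower without LPS, and without KD replicate 3 of the LPS group 17 were lower with LPS. The 11 stromal markers with enough counts, of 12 listed, split into 5 that were higher in KD and 4 that were lower, both without and with LPS. DPP4 and LUM were higher by 2.07 and 2.02 on the log2 scale without LPS, whereas THY1 and ENG had log2 fold changes of -2.37 and -1.36. The stromal sum was 5364 to 6168 CPM in scramble control and 6163 to 7237 CPM in KD, and 5144 to 5865 CPM against 6423 to 7346 CPM with LPS. Of 3 endothelial markers tested, 1 was lower without LPS, and 2 were lower and 1 higher with LPS. The part of these cell type markers in the lower levels of the members was not tested. Of 14 mitochondrial reference genes, among them genes of the respiratory chain, protein import and mitochondrial transcription, 1 was lower (CS, the citrate synthase) and 1 higher without LPS and 2 were lower and 1 higher with LPS, with median log2 fold changes of 0.091 and 0.021.

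Among the synthetases and thioesterases, 5 of 6 were lower in KD without LPS and 3 of 6 with LPS. ACSL5, a synthetase of the mitochondrial outer membrane and endoplasmic reticulum, had the largest fall of all members without LPS. It was at 31.3, 40.8 and 42.4 CPM in scramble control and at 8.38, 7.91 and 7.43 CPM in KD. Under LPS its levels were 28.7, 36.0 and 36.8 CPM in scramble control and 6.99, 7.16 and 7.17 CPM in KD. All KD libraries lay far below all scramble libraries, at 0.208 of the scramble level without LPS and 0.210 with LPS. The log2 fold changes of ACSL5 were -2.27 (standard error 0.13, adjusted p = 2.6e-07) and -2.25 (standard error 0.13, adjusted p = 3.4e-08).

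ACSL1, the main synthetase of adipocytes, was at 547, 629 and 773 CPM in scramble control and at 493, 478 and 382 CPM in KD. In the LPS groups it was at 859, 986 and 992 CPM in scramble control and at 634, 548 and 551 CPM in KD. The groups did not overlap in either comparison, and the log2 fold changes of ACSL1 were -0.52 (standard error 0.13, adjusted p = 0.0097) and -0.71 (standard error 0.08, adjusted p = 2.2e-05). ACSL4, which prefers arachidonic acid, was at 782, 716 and 746 CPM in scramble control and at 659, 744 and 573 CPM in KD, so that the groups overlapped. Its log2 fold change was -0.18 without LPS (adjusted p = 0.18, and 0.045 without KD replicate 2) and -0.08 with LPS (adjusted p = 0.48). ACSL3 fell by 0.25 on the log2 scale without LPS, a call that was lost when any library was left out. Among the thioesterases, which release the free acid again, ACOT2 had log2 fold changes of -0.94 and -0.72 without and with LPS, and ACOT1 fell by 0.77 without LPS, with an adjusted p of 0.13 in the fit on all 12 libraries. ACOT1 and ACOT2 share 63.4% and 64.9% of their 31-base words with other genes, chiefly with each other, so that the split of reads between them is uncertain. With their counts summed, the calls stayed as they were.

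The carnitine shuttle moved in both directions. CPT1A and SLC25A20 were lower in KD in both comparisons, CPT2 was higher, and CPT1B, CRAT and CROT did not pass the test. CPT1A, on chromosome 11 of GRCh38 between 68754620 and 68844410, was at 38.5, 37.8 and 30.2 CPM in scramble control and at 13.5, 16.1 and 13.1 CPM in KD. With LPS it was at 23.4, 21.3 and 22.1 CPM in scramble control and at 14.9, 16.5 and 15.7 CPM in KD. The KD libraries of CPT1A stayed between 13.1 and 16.5 CPM whether or not LPS was given, whereas the scramble libraries were lower with LPS. The log2 fold change of CPT1A was -1.31 without LPS (standard error 0.13, adjusted p = 1.2e-05) and -0.50 with LPS (standard error 0.12, adjusted p = 0.0054).

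SLC25A20, the carnitine-acylcarnitine translocase of the inner membrane, was at 18.0, 16.6 and 17.5 CPM in scramble control and at 10.5, 10.9 and 7.33 CPM in KD. Under LPS its levels were 16.2, 17.2 and 15.9 CPM in scramble control and 7.67, 7.57 and 7.38 CPM in KD. No KD library reached the lowest scramble library. For SLC25A20 the log2 fold changes were -0.85 (standard error 0.16, adjusted p = 0.0015) and -1.12 (standard error 0.14, adjusted p = 3.4e-05).

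CPT2, which turns acylcarnitine back into acyl-CoA inside mitochondria, was at 8.88, 7.61 and 6.98 CPM in scramble control and at 12.4, 11.3 and 10.5 CPM in KD. In the LPS groups it was at 9.18, 11.8 and 9.87 CPM in scramble control and at 14.9, 13.5 and 13.2 CPM in KD. All KD libraries lay above the scramble libraries in both comparisons, by 0.54 on the log2 scale (standard error 0.15, adjusted p = 0.018) and by 0.43 (standard error 0.15, adjusted p = 0.046). The call of CPT2 with LPS was lost by DESeq2 (adjusted p = 0.054) and without any filter on low counts (adjusted p = 0.054), and leaving out 1 library ended it in 5 of 6 cases. Without LPS it was lost without scramble replicate 2 (adjusted p = 0.068), scramble replicate 3 (adjusted p = 0.074) or KD replicate 1 (adjusted p = 0.063). CPT1B, the isoform of muscle, was at 2.01, 1.84 and 2.45 CPM in scramble control and at 3.66, 0.724 and 3.51 CPM in KD. With LPS it was at 2.63, 4.49 and 3.21 CPM in scramble control and at 3.68, 5.36 and 6.40 CPM in KD. The groups overlapped in both comparisons, and the log2 fold changes of 0.32 (standard error 0.48) and 0.58 (standard error 0.29) did not pass the test. CPT1B shares 98.1% of its 31-base words with the readthrough transcript CHKB-CPT1B, a separate row, so that the split between these rows is uncertain. CHKB-CPT1B was at 0.968, 1.01 and 1.46 CPM in scramble control and at 5.79, 5.70 and 1.88 CPM in KD. With LPS it was at 0.767, 1.06 and 0.867 CPM in scramble control and at 4.30, 1.81 and 1.72 CPM in KD. In KD replicate 2, where CPT1B was lowest, CPT1B held 39 counts and CHKB-CPT1B 307. The rows were not tested together, so that the overlap of CPT1B alone does not show that its level was unchanged.

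**Figure D3:**
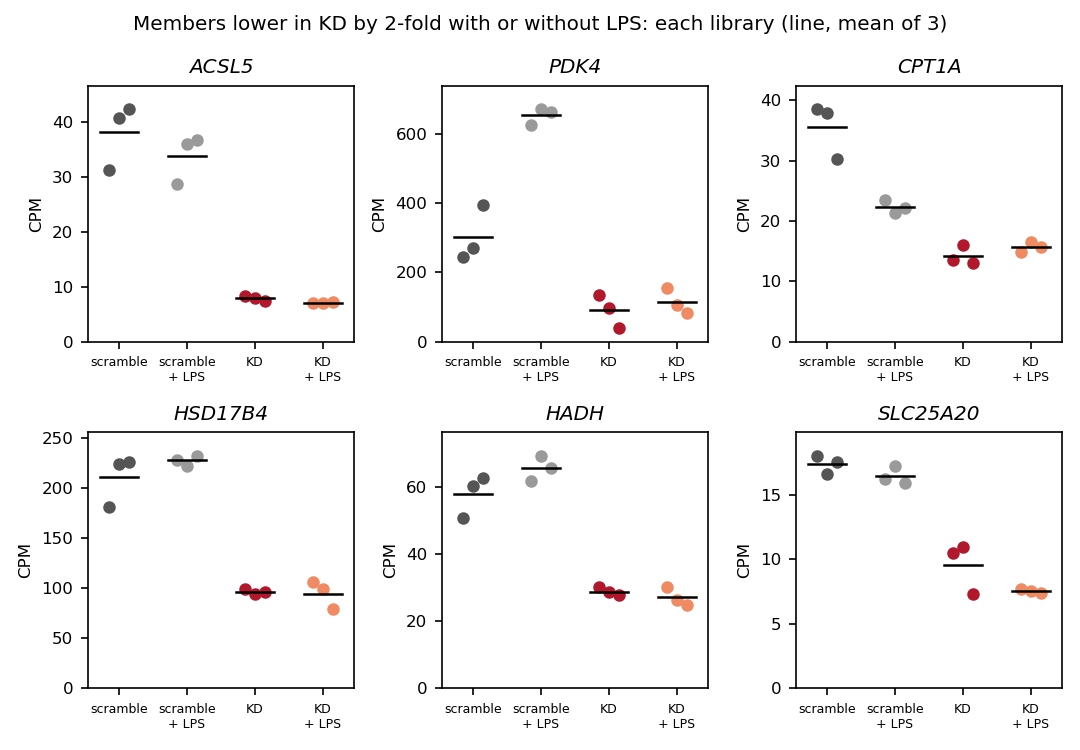
Level of 6 members in each of the 12 libraries, in CPM, by group (points, libraries; lines, mean of 3). The members shown were lower in KD by at least 2-fold with or without LPS. ACSL5 libraries of KD lie between 6.99 and 8.38 CPM, below every scramble library, and PDK4 reaches 626 to 670 CPM in scramble with LPS only.

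Of the acyl-CoA dehydrogenases that open each cycle, ACADVL, the very-long-chain enzyme of the inner membrane, was the member that passed the test. ACADVL was at 230, 230 and 234 CPM in scramble control and at 190, 159 and 164 CPM in KD. Under LPS its levels were 235, 243 and 228 CPM in scramble control and 179, 171 and 163 CPM in KD. The groups of ACADVL did not overlap, and the log2 fold changes were -0.43 (standard error 0.08, adjusted p = 0.0021) and -0.46 (standard error 0.07, adjusted p = 0.00033). ACADM, the medium-chain enzyme, was at 29.6, 28.2 and 31.2 CPM in scramble control and at 32.3, 25.7 and 22.4 CPM in KD. Its libraries overlapped in both comparisons, with 34.0, 26.9 and 30.9 CPM in scramble with LPS and 35.2, 27.8 and 31.4 CPM in KD with LPS. The log2 fold change of ACADM was -0.15 (standard error 0.13, adjusted p = 0.45) without LPS and 0.04 (standard error 0.12, adjusted p = 0.87) with LPS. ACADS, the short-chain enzyme, did not pass in either comparison, and no difference in ACADL was detectable at this depth.

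The enzymes that complete the cycle were lower in KD in 4 of 5 cases in both comparisons, the exception being ECHS1, the short-chain hydratase. HADH, the short-chain hydroxyacyl-CoA dehydrogenase, was at 50.9, 60.3 and 62.7 CPM in scramble control and at 30.1, 28.6 and 27.7 CPM in KD. In the LPS groups it was at 61.7, 69.3 and 65.8 CPM in scramble control and at 30.1, 26.2 and 24.9 CPM in KD. HADH stood at 0.498 of the scramble level without LPS and 0.413 with LPS, and no KD library came near a scramble library. The log2 fold changes of HADH were -1.01 (standard error 0.10, adjusted p = 1.3e-05) and -1.28 (standard error 0.10, adjusted p = 5.8e-07).

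HADHA and HADHB, the subunits of the mitochondrial trifunctional protein, fell by smaller amounts. HADHA was at 224, 226 and 221 CPM in scramble control and at 205, 189 and 161 CPM in KD, and with LPS at 246, 232 and 230 CPM against 197, 180 and 172 CPM. HADHB was at 136, 135 and 142 CPM in scramble control and at 120, 120 and 96.1 CPM in KD, and with LPS at 154, 144 and 147 CPM against 121, 105 and 106 CPM. The groups of both genes did not overlap in either comparison. The log2 fold changes were -0.27 (adjusted p = 0.045) and -0.36 (adjusted p = 0.0032) for HADHA and -0.30 (adjusted p = 0.035) and -0.42 (adjusted p = 0.0015) for HADHB. Without LPS these calls were lost when the libraries were scaled by size only (adjusted p = 0.20 for HADHA and 0.16 for HADHB). They were also lost with the replicate number as a block (adjusted p = 0.055 and 0.056). The call of HADHA ended with size factors of the DESeq2 type (adjusted p = 0.052) and with filterByExpr (adjusted p = 0.051). It also ended without any library but KD replicate 1 (adjusted p = 0.076 to 0.14). That of HADHB ended without any scramble replicate or KD replicate 3 (adjusted p = 0.068 to 0.098). With LPS both calls were kept in all alternatives run. ACAA2, the mitochondrial thiolase, fell by 0.46 on the log2 scale without LPS and by 0.72 with LPS.

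The electron transfer flavoprotein carries electrons from the dehydrogenases to the respiratory chain. All 3 members that take part in this transfer were lower in KD without LPS and 2 of 3 with LPS. The log2 fold changes without and with LPS were -0.90 and -0.79 for ETFDH, the ubiquinone oxidoreductase, and -0.76 and -0.93 for the subunit ETFB. The subunit ETFA fell by 0.36 without LPS, a call lost when the libraries were scaled by size only (adjusted p = 0.059) or without scramble replicate 2 (adjusted p = 0.055). For unsaturated chains, the isomerase ECI2 fell by 0.34 without LPS and the reductase DECR1 fell by 0.37 with LPS. Neither call was kept when the libraries were scaled by size only (adjusted p = 0.067 and 0.082). ECI2 with LPS was at -0.38 (adjusted p = 0.051), and DECR1 without LPS was at -0.0057 (adjusted p = 0.98). The call of ECI2 was also lost without scramble replicate 1 (adjusted p = 0.054), and that of DECR1 without replicate 1 or 3 of scramble with LPS or replicate 2 or 3 of KD with LPS (adjusted p = 0.063 to 0.11). ECI1 and DECR2 did not pass in either comparison.

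Among the 8 peroxisomal members, 3 were lower and 1 higher in KD without LPS, and 5 were lower and 1 higher with LPS. HSD17B4, the D-bifunctional protein that carries the hydratase and dehydrogenase steps, spans 119452465 to 119637199 on chromosome 5 (GRCh38). It was at 181, 224 and 226 CPM in scramble control and at 98.9, 93.7 and 96.0 CPM in KD. With LPS it was at 228, 222 and 232 CPM in scramble control and at 106, 98.6 and 78.8 CPM in KD. The highest KD library of HSD17B4 lay well below the lowest scramble library. For HSD17B4 the log2 fold changes were -1.12 (standard error 0.09, adjusted p = 3.6e-06) and -1.27 (standard error 0.10, adjusted p = 6.1e-07), which is 0.459 and 0.416 of the scramble level.

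ABCD2, a transporter of very-long-chain acyl-CoA that is abundant in fat, was at 9.63, 10.5 and 11.1 CPM in scramble control and at 10.1, 10.1 and 5.90 CPM in KD. Under LPS its levels were 11.9, 11.0 and 11.6 CPM in scramble control and 6.87, 6.93 and 5.17 CPM in KD. Without LPS the groups of ABCD2 overlapped and only KD replicate 3 stood low (log2 fold change -0.25, standard error 0.20, adjusted p = 0.40), whereas with LPS the groups were separate (log2 fold change -0.86, standard error 0.17, adjusted p = 0.0021). The difference between these effects, tested as the interaction, was -0.61 (standard error 0.27, adjusted p = 0.41). ABCD3, another acyl-CoA transporter of the peroxisomal membrane, was higher in KD by 0.29 on the log2 scale without LPS and by 0.34 with LPS, and leaving out any of 4 of the 6 libraries ended either call, with adjusted p-values of 0.061 to 0.18. The branched-chain oxidase ACOX2 had log2 fold changes of -0.93 and -0.85, and its relative ACOX3 fell by 0.50 without LPS, a call lost without scramble replicate 2 (adjusted p = 0.061). EHHADH, the L-bifunctional protein, fell by 0.91 and PEX11A, a factor of peroxisome division, fell by 0.85, both with LPS. Without LPS they were at -0.49 (adjusted p = 0.055) and -0.57 (adjusted p = 0.072), and their interactions had adjusted p-values of 0.63 and 0.86. The call of PEX11A with LPS was lost without replicate 1 of scramble with LPS or replicate 2 or 3 of KD with LPS (adjusted p = 0.054 to 0.059). The peroxisomal thiolase ACAA1 did not pass in either comparison.

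The regulators went in opposite directions. PDK4, a kinase that inhibits pyruvate dehydrogenase and so spares glucose when fatty acids are burnt, spans 95583499 to 95596516 on chromosome 7 (GRCh38). It was at 244, 270 and 394 CPM in scramble control and at 136, 97.7 and 40.1 CPM in KD. In the LPS groups it was at 626, 670 and 661 CPM in scramble control and at 155, 105 and 84.0 CPM in KD. The KD libraries of PDK4 did not reach the scramble libraries, and those without LPS were spread widely, with replicate 3 the lowest. The log2 fold change of PDK4 was -1.72 without LPS (standard error 0.33, adjusted p = 0.0021), or 0.303 of the scramble level, and -2.51 with LPS (standard error 0.17, adjusted p = 1e-07), or 0.176 of the scramble level.

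PPARA, the receptor that activates fatty acid oxidation genes in liver, was at 3.65, 10.5 and 9.50 CPM in scramble control and at 15.6, 15.5 and 13.9 CPM in KD. With LPS it was at 4.81, 16.9 and 3.91 CPM in scramble control and at 4.61, 5.66 and 7.59 CPM in KD. Without LPS all KD libraries of PPARA lay above the scramble libraries, whereas with LPS the groups overlapped and the scramble libraries spread most. The log2 fold change was 0.94 without LPS (standard error 0.29, adjusted p = 0.033) and -0.51 with LPS (standard error 0.43, adjusted p = 0.44). The adjusted p of PPARA without LPS was 0.12 in the fit on all 12 libraries, and 0.076, 0.091 and 0.056 without KD replicate 1, 2 or 3. PPARD, a broadly expressed PPAR, was at 107, 124 and 103 CPM in scramble control and at 147, 158 and 170 CPM in KD, and with LPS at 94.5, 117 and 99.6 CPM against 147, 167 and 149 CPM. No scramble library of PPARD reached a KD library, and it was higher by 0.51 and 0.57 on the log2 scale (adjusted p = 0.0013 and 0.00043).

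Further lists were counted beside the members. Of 48 other genes of fatty acid oxidation and uptake, 43 were tested, and 8 were lower and 5 higher in KD without LPS, with a median log2 fold change of -0.125. With LPS 5 were lower and 5 higher, with a median of -0.033, so that both shares stayed near the background. Those past the 2-fold threshold, named after their values were seen, were the same 5 genes in both comparisons: the acetyl-CoA carboxylase ACACB, the fatty acid uptake genes CD36 and SLC27A3, all lower, and the ketone body enzyme OXCT1 and the thioesterase ACOT12, both higher. The log2 fold changes without and with LPS were -1.37 and -2.32 for ACACB, -1.14 and -1.80 for CD36 and -1.11 and -1.49 for SLC27A3. OXCT1 was higher by 1.07 and 1.36, and ACOT12 stayed under 1 CPM in every library of both scramble groups and of KD without LPS.

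Of 21 PPAR cofactors and further PPAR targets, 20 were tested, and 10 were lower and 2 higher without LPS, whereas 10 were lower with LPS. The median log2 fold changes of this list were -0.416 and -0.842. On the log2 scale the changes were -0.87 and -1.59 for PPARG itself, -0.40 and -0.58 for its partner RXRA, and -1.24 and -1.40 for the lipid droplet gene PLIN2. The corepressors NCOR1, at -1.06 and -1.10, and NRIP1, at -0.63 and -0.58, were lower too. The 2 higher genes were VLDLR, at 1.91, and PDK3, which stayed under 1 CPM in every library of scramble control and KD without LPS. PPARG, FABP4 and CIDEC are also on the list of adipocyte markers. Of 16 peroxisome biogenesis genes, 2 were lower and 1 higher without LPS, and 3 were lower with LPS. This list also counts CAT, the peroxisomal catalase, an enzyme rather than a biogenesis factor, with log2 fold changes of -0.94 and -1.29. The other lower genes were PEX19, at -0.55 and -0.68, and PEX6 with LPS only, at -0.31. PEX5 was the higher gene without LPS, at 0.49.

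**Figure D4:**
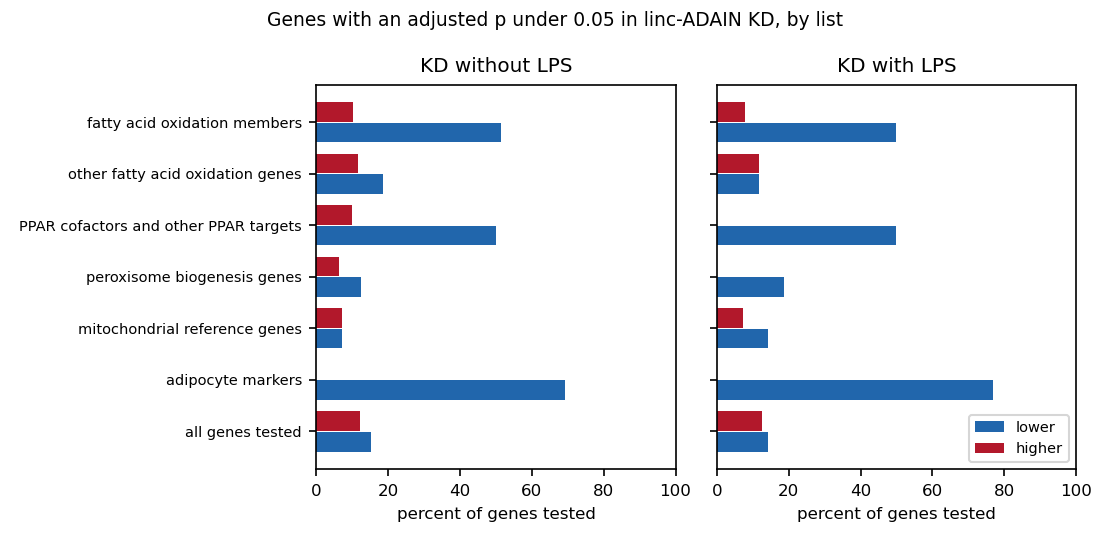
Percent of the tested genes of each list with an adjusted p under 0.05 that were lower (blue) or higher (red) in linc-ADAIN KD, without LPS (left) and with LPS (right). The members, the PPAR list and the adipocyte markers have 50% or more of their genes lower in both panels, whereas the mitochondrial reference genes stay at 14.3% or below and all genes at 15.1% and 14.2%.

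LPS in scramble control tests the response of control adipocytes. The LPS comparisons use the same libraries as the KD comparisons, regrouped, and so share samples with them. All 10 listed LPS-induced genes were higher by at least 2-fold with LPS in both shRNA groups. Of the 39 members, 5 were higher and 2 lower with LPS in scramble control, against 5.90% higher and 8.38% lower over all 15920 genes tested, and the median log2 fold change was 0.059. PDK4 was the 1 member past the 2-fold threshold, against 1.40% higher and 1.28% lower over all genes. From the values above, PDK4 rose from at most 394 CPM to at least 626 CPM, or 2.17-fold (1.12 on the log2 scale, standard error 0.15, adjusted p = 0.00032). Without scramble replicate 1 its change was under 2-fold.

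ACSL4 was at 1270, 1200 and 1290 CPM in scramble with LPS, above every scramble library without LPS, a rise of 0.76 on the log2 scale (standard error 0.07, adjusted p = 3.6e-05). ACSL1 rose by 0.56 (standard error 0.12, adjusted p = 0.0079), and again the groups did not overlap. PEX11A rose by 0.64 and ACAA1 by 0.34, both calls that the fit without TMM scaling ended. The call of ACAA1 was lost when any library was left out (adjusted p = 0.056 to 0.16). That of PEX11A was lost in the fit on all 12 libraries (adjusted p = 0.087). It was also lost without scramble replicate 2 or 3 or replicate 1 or 3 of scramble with LPS (adjusted p = 0.085 to 0.17). The members that fell with LPS in scramble control were CPT1A (log2 fold change -0.66, standard error 0.11, adjusted p = 0.0018) and ACOT1 (-0.77, standard error 0.21, adjusted p = 0.029). The call of ACOT1 was lost in the fit on all 12 libraries (adjusted p = 0.19) and without scramble replicate 2 or 3 or replicate 1 or 3 of scramble with LPS (adjusted p = 0.063 to 0.098). Every scramble library of CPT1A with LPS lay below every scramble library without it. The scramble libraries of PPARA with and without LPS overlapped, at 0.11 on the log2 scale (standard error 0.50, adjusted p = 0.92).

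In KD, 2 of 38 members were higher with LPS and 1 was lower, against 5.32% higher and 6.03% lower of 16169 genes, and the median log2 fold change was -0.035. ACSL4 was at 1250, 1110 and 1220 CPM in KD with LPS, all above the 573 to 744 CPM of KD without LPS, a rise of 0.86 on the log2 scale (standard error 0.09, adjusted p = 1.1e-05). ACSL1 rose by 0.36 (standard error 0.09, adjusted p = 0.024), a call lost in the fit on all 12 libraries (adjusted p = 0.054) and without KD replicate 3 or replicate 1 or 3 of KD with LPS (adjusted p = 0.083, 0.12 and 0.051). ACSL4 and ACSL1 were the members that rose with LPS under both shRNAs. Over all genes, 49.7% of those that rose with LPS in KD also rose in scramble control. PPARA fell by 1.34 (standard error 0.19, adjusted p = 0.00023), with the 3 KD libraries of each condition apart, and was the 1 member past the 2-fold threshold, against 1.30% higher and 0.946% lower over all genes. In the fit on all 12 libraries, in which the wide scramble groups enter the estimate of spread, the adjusted p of this fall was 0.052. ACAA2 lay at the threshold, at -0.40 on the log2 scale (standard error 0.12, adjusted p = 0.050), and most alternatives counted it as lower. PDK4 and CPT1A did not pass the test in KD, with log2 fold changes of 0.33 (standard error 0.31, adjusted p = 0.59) and 0.14 (standard error 0.14, adjusted p = 0.61). The result for PDK4 depended on the fit. With the replicate number as a block it passed, at 0.44 (adjusted p = 0.00033), and without KD replicate 3 it was at -0.034 (adjusted p = 0.96). Within KD the median log2 fold change of the 13 adipocyte markers with LPS was -0.817. All 13 values were negative, and 1 of them passed the test.

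**Figure D5:**
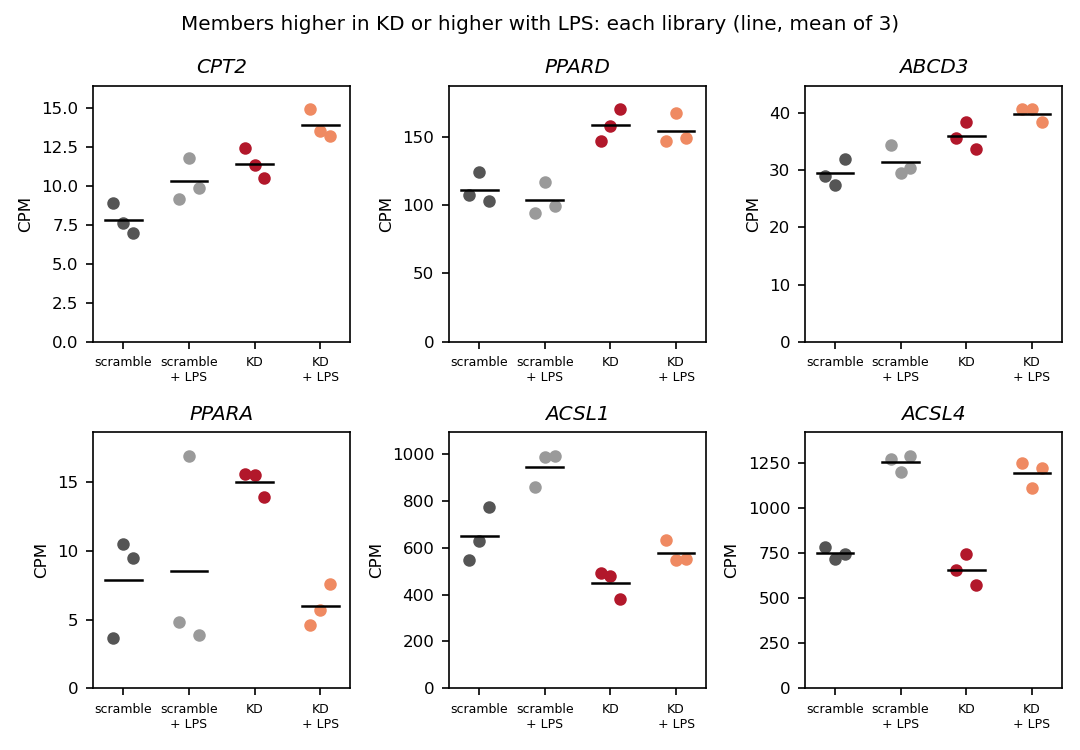
Level of 6 members in each of the 12 libraries, in CPM, by group (points, libraries; lines, mean of 3). CPT2, PPARD and ABCD3 were higher in KD in both comparisons, PPARA was higher in KD without LPS, and ACSL1 and ACSL4 were higher with LPS under both shRNAs. ACSL4 lies between 573 and 782 CPM without LPS and between 1110 and 1290 CPM with LPS.

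The interaction, fitted on all 12 libraries, tests whether the effect of LPS differed between KD and scramble control. CPT1A was the 1 member past the threshold, with an interaction of 0.82 on the log2 scale (standard error 0.17, adjusted p = 0.020), against 0.943% of 17173 genes with a more positive and 0.332% with a more negative effect of LPS in KD. CPT1A fell with LPS in scramble control, where it was high, and was at 13.1 to 16.5 CPM in every KD library. Its interaction had an adjusted p of 0.051 to 0.081 without scramble replicate 1, scramble replicate 2, KD replicate 1, or replicate 2 or 3 of KD with LPS. The interactions of PDK4 (-0.78, standard error 0.41, adjusted p = 0.51), PPARA (-1.44, standard error 0.60, adjusted p = 0.36) and ACSL1 (-0.19, standard error 0.16, adjusted p = 0.76) did not pass the threshold.

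Some members share sequence with other genes, and the split of their reads by the counting is uncertain. Beside CPT1B and the ACOT pair, the share of 31-base words found in other genes of GENCODE 44 was 42.8% for ETFB, 36.8% for CPT2, 35.5% for ACAA2, 27.7% for DECR2, 22.8% for ACAA1 and 19.2% for HADHA. It was 8.72% for ACSL5, 8.18% for CPT1A, 2.66% for HSD17B4 and 1.03% for SLC25A20, and 0% for HADH and PDK4.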

How the data were processed

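The authors sequenced polyA RNA in stranded libraries, assigned the reads with kallisto 0.44.0 to an index of human transcriptomes (GRCh38) and deposited estimated counts per gene name, without scaling for library size or length. Neither the annotation release of the index nor the way transcripts were summed is given in the sources used here. The deposited values were whole numbers, and a row without a gene name, 0.235% to 0.306% of a library, was left out.

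In R 4.3.3, a fit kept genes with 10 or more counts over its libraries. Scaling was by TMM in edgeR 4.0.16, whose quasi-likelihood test was run over all genes kept, with p-values adjusted by Benjamini-Hochberg. The comparisons were KD without LPS, KD with LPS, LPS in scramble and LPS in KD, each on its 6 libraries, and the interaction on all 12. A member was called at an adjusted p under 0.05, and the count with at least a 2-fold difference was given beside it. Standard errors were taken as the absolute log2 fold change over the root of its F statistic. The study used DESeq2, and DESeq2 1.42.0 was an alternative, with other scalings, other filters, a replicate block, a fit on all 12 libraries and each library left out. Counts simulated with 200 changed genes were used to test the scripts.

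The members and lists were chosen with earlier results of these data known. Values per library were given for members past both thresholds in a comparison, members past the interaction, the 3 members with the smallest adjusted p in each comparison, and CPT1A, CPT1B, CPT2, SLC25A20, ACADM, ACADVL, HADHA, HADHB, ACSL1, PPARA, PDK4 and ABCD2. PPARD was added to them after its values were seen. Transcript lengths and positions come from GENCODE 44, which held 28647 of 28901 gene names and all 39 members, and promoter windows from RefSeq. Genes with few counts are limited by the depth, and intervals between libraries cover 1 experiment.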

Additional observations from a re-analysis of the deposited data

Results flagged for a closer look

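CPT1A was singled out by a test of the difference itself. Its response to LPS was not the same in linc-ADAIN KD as in scramble control, with an interaction of 0.82 on the log2 scale (standard error 0.17, adjusted p = 0.020 by edgeR's quasi-likelihood test over 17173 genes). In scramble control CPT1A was at 30.2 to 38.5 CPM without LPS and at 21.3 to 23.4 CPM with LPS, lower in 3 of 3 libraries, and in KD it was at 13.1 to 16.1 CPM without LPS and at 14.9 to 16.5 CPM with LPS. DESeq2 gave an adjusted p of 0.0014 for the interaction, and fits without 1 library each gave interactions of 0.74 to 0.92 with adjusted p-values of 0.0091 to 0.081.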

How the results depend on the processing

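Of 73 log2 fold changes of members, 45 were on the same side of 0 and of the 0.05 threshold throughout the alternatives, and the counts of members lower in KD stayed within 1.5 times of the reported ones under each alternative. The calls that were lost in at least 1 alternative belonged to ABCD3, CPT2, DECR1 and PEX11A in KD with LPS, to ABCD3, ACOT1, ACOX3, ACSL3, CPT2, ECI2, ETFA, HADHA, HADHB and PPARA in KD without LPS, to ACAA1, ACOT1 and PEX11A for LPS in scramble, to ACSL1 and PPARA for LPS in KD, and to CPT1A in the interaction, and the cause was not tested. Scaling by library size only moved the median log2 fold change of all genes to 0.129 for KD without LPS and 0.109 for KD with LPS, against 0.024 and 0.025. On that scale ACSL4 in KD with LPS was at 0.0080, the other sign, and 3 members were higher for LPS in scramble. In the fit on all 12 libraries 1 member was lower for LPS in scramble, and 1 higher and 0 past both thresholds for LPS in KD. For LPS in KD, 2 members were lower under size factors of the DESeq2 type, library size only, filterByExpr, no filter on low counts and DESeq2, the second being ACAA2.

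The replicate numbers were not used to pair the libraries in the main fits. The correlation of deviations between libraries with the same number was -0.123 to 0.257, and no comparison had all 3 pairs above 0.1. Such correlations cannot show that pairing is absent. In KD the adipocyte marker sum fell from replicate 1 to 3 without LPS (2070, 1559 and 720.9 CPM) and with LPS (1300, 904.7 and 570.1 CPM). In scramble control it was highest in replicate 3 without LPS and in replicate 2 with LPS. For LPS in scramble every library correlated best with the library of its own number, and in the other comparisons this did not hold for every library. With the replicate number as a replicate block, 17 members were lower and 3 higher in KD without LPS and 22 lower and 2 higher with LPS. For LPS in KD the block gave 4 higher, 2 lower and 2 past both thresholds, PDK4 there was at 0.44 with an adjusted p of 0.00033 and so passed the test, and PPARA for LPS in scramble was at -0.029.

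With each library left out in turn, 1 to 3 members were higher in KD without LPS and 1 to 2 with LPS, and 4 to 6 and 5 to 8 were past both thresholds. For LPS in scramble 3 to 5 were higher, 1 to 2 lower and 0 to 1 past both thresholds, for LPS in KD 1 to 2 were higher and 1 to 2 lower, and for the interaction 0 to 1 had a more positive effect. Single libraries turned the sign of values that had not passed the test. CPT1B in KD ranged from -0.0090 (without KD replicate 1) to 0.77. ACADM in KD with LPS ranged from -0.052 to 0.12, with -0.048 and -0.052 without scramble replicate 2 or KD replicate 1 of the LPS groups, and PPARA there from -0.86 to 0.44, the last without that scramble replicate. PPARA for LPS in scramble ranged from -0.84 (without scramble replicate 2 with LPS) to 0.46, with -0.23 without scramble replicate 1, and PDK4 for LPS in KD from -0.034 (without KD replicate 3) to 0.73. Of the levels per kb, 17 of 39 moved by more than the SD with the longest transcript. Members under 10 CPM are limited by their counts at this depth.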
